A study of Mus musculus with 2 samples.

Results

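The expression of 10 genes for inflammatory chemokines and cytokines outside the interferon response was examined in P0 mouse ureters treated with an inhibitor of WNT secretion. The genes were *Cxcl1*, *Cxcl2*, *Cxcl5*, *Cxcl12*, *Cxcl14*, *Ccl2*, *Ccl7*, *Ccl20*, *Il6* and *Il1b*, represented by 11 probes, out of 29924 gene names and 39429 probes on the array. They were selected on measured values, the IWP-2 over control ratios of *Cxcl5* and of related genes on these same arrays, so their ratios are given as a description with no p-value, and calls among them are only counted beside the share called over all genes. Wildtype NMRI ureters from newborn pups (P0) were cultured for 18 h with 5 µM IWP-2, which blocks the acyltransferase PORCN and thereby the release of WNT ligands, or with the solvent DMSO at 1:1000 as control. Two-colour arrays compared a treated with a control pool of ureters, with 1 pool of whole ureters per channel. In replicate 1 the pools were female, the control RNA was labelled green and the treated RNA red, and in replicate 2 the pools were male and the dyes were swapped. Sex, dye orientation and array therefore changed together and cannot be told apart. All ureters had been dissected and kept in serum-containing medium, and uncultured ureters were not analysed here, so the values describe explants and not the organ in the animal.

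Chemokines are small secreted proteins that attract leukocytes through G protein-coupled receptors. *Cxcl1*, *Cxcl2* and *Cxcl5* encode ligands of CXCR2 that draw neutrophils, CCL2 and CCL7 draw monocytes through CCR2, CCL20 binds CCR6, and CXCL12 and CXCL14 are made constitutively by many stromal and epithelial tissues. IL1B and IL6 are cytokines of the acute inflammatory response, and transcription of many of these genes depends on NF-κB, which IL-1 and TNF activate in epithelial cells, fibroblasts and macrophages.

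*Cxcl1*, *Cxcl2* and *Cxcl5* belong to a chemokine gene cluster on chromosome 5 with the order *Cxcl5*, *Ppbp*, *Pf4*, *Cxcl3*, *Cxcl15*, *Cxcl1* and *Cxcl2* (RefSeq, GRCm38.p6), within 146.6 kb. Upstream sequences from RefSeq were found for 7 of the 10 genes, and *Cxcl5*, *Ccl2* and *Ccl7* were not among them. The 250 bases before the transcript start are shown for *Cxcl1* (chr5:90890995-90891244, plus strand) and *Cxcl2* (chr5:90903649-90903898, plus strand), neighbours whose ratios shared one pattern, and for the cytokine genes *Il6* (chr5:30012864-30013113, plus strand) and *Il1b* (chr2:129371140-129371389, minus strand), 1 with and 1 without a match. Sequences run 5′ to 3′ along the transcript, and capitals mark matches to the NF-κB consensus on either strand.
Cxcl1: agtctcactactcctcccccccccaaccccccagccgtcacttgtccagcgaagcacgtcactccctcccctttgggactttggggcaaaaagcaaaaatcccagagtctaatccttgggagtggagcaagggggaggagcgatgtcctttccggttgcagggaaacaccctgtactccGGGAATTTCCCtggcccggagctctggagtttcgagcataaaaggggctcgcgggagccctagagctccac
Cxcl2: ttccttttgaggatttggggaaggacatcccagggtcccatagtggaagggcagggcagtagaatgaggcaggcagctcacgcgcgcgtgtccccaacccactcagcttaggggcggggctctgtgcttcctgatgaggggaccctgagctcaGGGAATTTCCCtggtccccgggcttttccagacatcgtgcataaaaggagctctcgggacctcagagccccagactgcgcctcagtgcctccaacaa
Il6: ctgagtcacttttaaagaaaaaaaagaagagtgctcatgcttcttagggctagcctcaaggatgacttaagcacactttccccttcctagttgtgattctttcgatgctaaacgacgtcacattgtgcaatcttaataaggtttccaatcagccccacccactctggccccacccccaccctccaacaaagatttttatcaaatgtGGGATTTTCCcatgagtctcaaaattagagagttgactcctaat
Il1b: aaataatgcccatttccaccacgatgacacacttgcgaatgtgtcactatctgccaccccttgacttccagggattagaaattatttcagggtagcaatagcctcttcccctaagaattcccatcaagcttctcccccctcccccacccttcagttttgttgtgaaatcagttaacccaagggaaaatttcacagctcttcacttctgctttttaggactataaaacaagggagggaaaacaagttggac

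*Cxcl1* and *Cxcl2* carried the same NF-κB run, GGGAATTTCCC, in which the matches on both strands overlapped, from -71 to -61 and from -97 to -87 relative to the start. *Il6* carried a match from -44 to -35 and *Ccl20* 1 from -80 to -71. Thus 4 of the 7 members with a sequence held the consensus, against 3.9% of 32851 promoters of the same length. The AP-1 motif TGANTCA was found in *Il6* alone among the 7 (6.75% of all promoters) and the TCF/LEF motif CTTTGAT in *Cxcl12* alone (3.21% of all promoters), each searched on both strands. These matches describe letters in this window and were not tied to factor binding.

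Signals are background-subtracted processed signals of the scanner software, normalized within each array by loess, averaged over the spots of a probe and floored at 15. A ratio is log2 of IWP-2 over control within 1 array, and a mean is given with the SD over the 2 arrays (n = 2). As whole ureters were pooled, fewer cells of a type and less RNA per cell cannot be told apart. The treatment was checked on *Axin2*, a target and feedback inhibitor of WNT signaling, which fell from 181 to 42.2 in replicate 1 and from 154 to 46.7 in replicate 2 (mean log2 fold change -1.91 ± 0.27, limma adjusted p = 0.000824). *Porcn*, which encodes the protein that IWP-2 inhibits, had a mean of -0.04 (limma adjusted p = 0.958). Over all 14336 genes with a mean signal above 100 in either condition, the ratios of the arrays correlated with r = 0.437 across genes, which are not independent replicates.

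*Cxcl5* had the strongest shift of the set towards higher signal under IWP-2 in the mean over both arrays. Its signal was 239 in the control and 743 in the IWP-2 pool of replicate 1, and 1119 in the control and 1721 in the IWP-2 pool of replicate 2. The IWP-2 pool was thus the higher one on each array, but the groups overlapped, as the male control pool gave more signal than the female IWP-2 pool. The ratios were 1.63 and 0.62, with a mean of 1.13 ± 0.72 (2.18-fold). By mean ratio *Cxcl5* ranked 4 among the 14336 genes, and it ranked 11 in replicate 1 and 31 in replicate 2. The 4 spots of its probe (mm9 chr5:91190490-91190549) had an SD of 0.026 in replicate 1 and of 0.020 in replicate 2.

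*Cxcl5* was the only member past the filter used in the study, which asks on both arrays for more than 100 in the control and at least 1.5-fold in the same direction. Upward, 11 of 14051 genes with such control signals passed this filter (0.0783%), and downward 51 did (0.363%). Limma at an adjusted p of 0.05 called 0 of the 9 members that could be tested. Across all 14336 genes limma called 52 higher (0.363%) and 127 lower (0.886%), and at an unadjusted p under 0.05 4 members were among the 899 higher genes. With median centring in place of loess the split over all genes was 85 higher and 108 lower, and with normexp background correction 170 and 257, where limma also called *Cxcl5* and *Cxcl12*. As these same ratios led to the choice of the genes, nothing is read from these counts.

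*Cxcl1* and *Cxcl2* also had ratios above 0 in replicate 1, but lay near 0 in replicate 2. *Cxcl2* gave signals of 44.7 in the control and 134 in the IWP-2 pool of replicate 1, and of 166 and 173 in replicate 2. The female control pool stood alone at a low level, below the 100 that the filter asks of controls, and the other 3 pools lay within a narrow range. The ratios were 1.58 and 0.06 (mean 0.82 ± 1.08, and 0.68 with normexp background correction). The spots of replicate 2 fell on both sides of 0, from -0.05 to 0.22. *Cxcl1* gave 137 and 245 in replicate 1, and 369 and 345 in replicate 2. Again the female control was the lowest pool, while in replicate 2 the IWP-2 pool was slightly below its control. The ratios were 0.84 and -0.10 (mean 0.37 ± 0.66). *Cxcl3*, a further CXCR2 ligand of the same cluster that was named after its values had been seen, gave 374 and 602 in replicate 1 and 731 and 692 in replicate 2, with ratios of 0.69 and -0.08. Another gene of the cluster, *Ppbp*, which encodes a platelet chemokine, had ratios of -0.13 and -1.15, and *Pf4*, encoding platelet factor, had 0.23 and 0.11. Its immediate neighbours on the chromosome therefore did not share the values of *Cxcl5*.

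**Figure D1:**
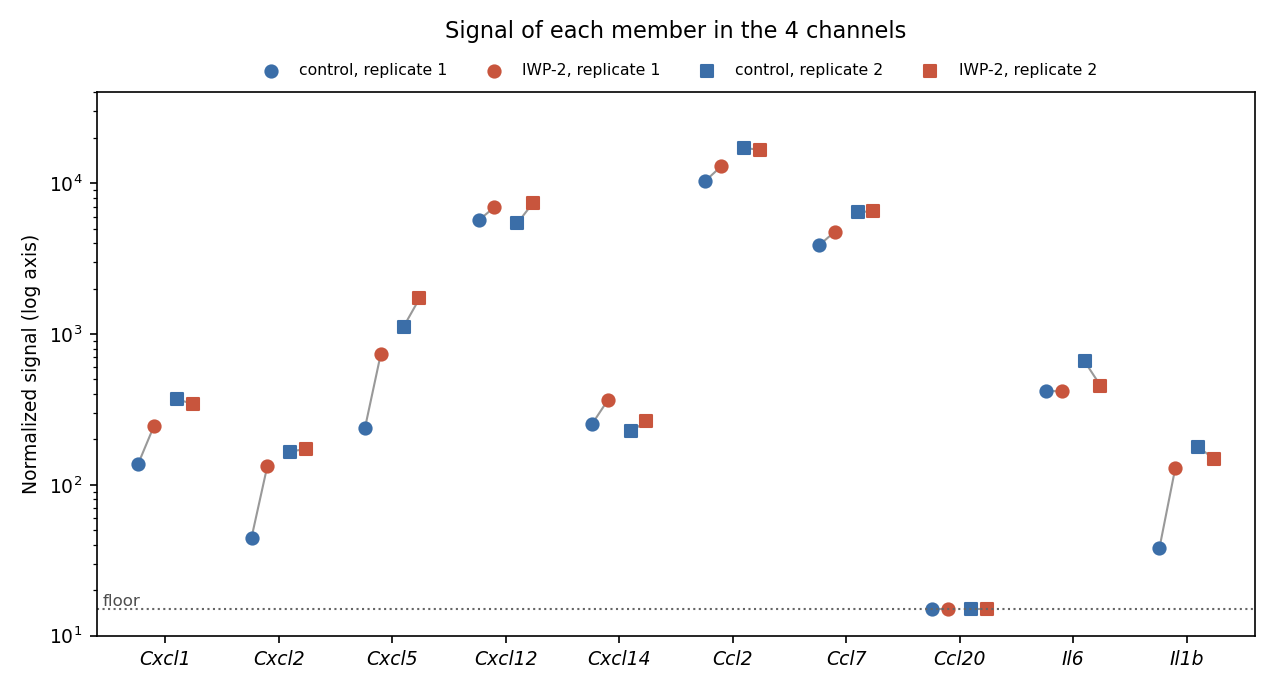
Normalized signal (log axis) of the 10 members in the control and IWP-2 pools of replicate 1 (circles) and replicate 2 (squares), with grey lines joining the pools of 1 array and a dotted line at the floor of 15. For *Cxcl1*, *Cxcl2*, *Cxcl5* and *Il1b* the control pool of replicate 1 is the lowest point, whereas for *Cxcl12* and *Cxcl14* both IWP-2 pools lie above both control pools.

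The constitutive chemokines differed from this pattern. *Cxcl12*, whose product holds CXCR4-bearing cells in stromal niches, gave signals of 5667 in the control and 6930 in the IWP-2 pool of replicate 1, and of 5412 and 7395 in replicate 2. Both IWP-2 pools exceeded both control pools, and the ratios of 0.29 and 0.45 averaged 0.37 ± 0.11. A second probe, placed elsewhere in the gene, gave 0.23 and 0.48 (mean 0.36 ± 0.18, 3 spots kept per array). *Cxcl14*, a chemokine of epithelia and fibroblasts, gave 253 and 365 in replicate 1 and 226 and 264 in replicate 2. Here too the groups did not overlap, with ratios of 0.53 and 0.22 and a mean of 0.38 ± 0.22. These were the 2 members of the 9 tested whose IWP-2 pools both lay above both controls, an order seen in 14% of all tested genes.

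*Cxcl12* and *Cxcl14* had similar signals in both control pools, 0.95-fold and 0.89-fold in replicate 2 over replicate 1. Between the IWP-2 pools they were at 1.07-fold and 0.72-fold, and this difference of *Cxcl14* lay at percentile 0.54 of all tested genes. Of the receptors of CXCL12, *Cxcr4* had ratios of -0.15 and -0.05 (limma adjusted p = 0.734), and *Ackr3*, which encodes a scavenging receptor, had ratios of 0.18 and 0.14 (limma adjusted p = 0.393).

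The monocyte chemokines gave bright signals and small ratios. *Ccl2* gave 10387 and 12964 in replicate 1, and 17070 and 16710 in replicate 2. The male pools were both above the female pools, and the ratios of 0.32 and -0.03 averaged 0.14 ± 0.25. *Ccl7*, the neighbour of *Ccl2* on chromosome 11, gave 3876 and 4769 in replicate 1 and 6417 and 6538 in replicate 2. Its ratios of 0.30 and 0.03 (mean 0.16 ± 0.19) were close to those of *Ccl2*. *Ccl20*, whose product draws CCR6-bearing lymphocytes and dendritic cells, was not well above background and lay at the floor of 15 in all 4 channels, so no ratio is given.

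The cytokines differed in replicate 1, and both had a ratio below 0 in replicate 2. *Il1b* gave 38.1 in the control and 129 in the IWP-2 pool of replicate 1, and 178 and 149 in replicate 2. The female control was again the low pool, and it too lay below 100. The ratios of 1.76 and -0.25 (mean 0.76 ± 1.43) had opposite signs in all 4 spots of each array. With normexp background correction the mean of *Il1b* was 0.60. *Il6* gave 420 and 417 in replicate 1, and 660 and 456 in replicate 2. It was the one tested member whose ratio was below 0 on both arrays, at -0.01 and -0.53 (mean -0.27 ± 0.37), although the spots of replicate 1 lay on both sides of 0. Its male control was the high pool and the other 3 lay close together.

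**Figure D2:**
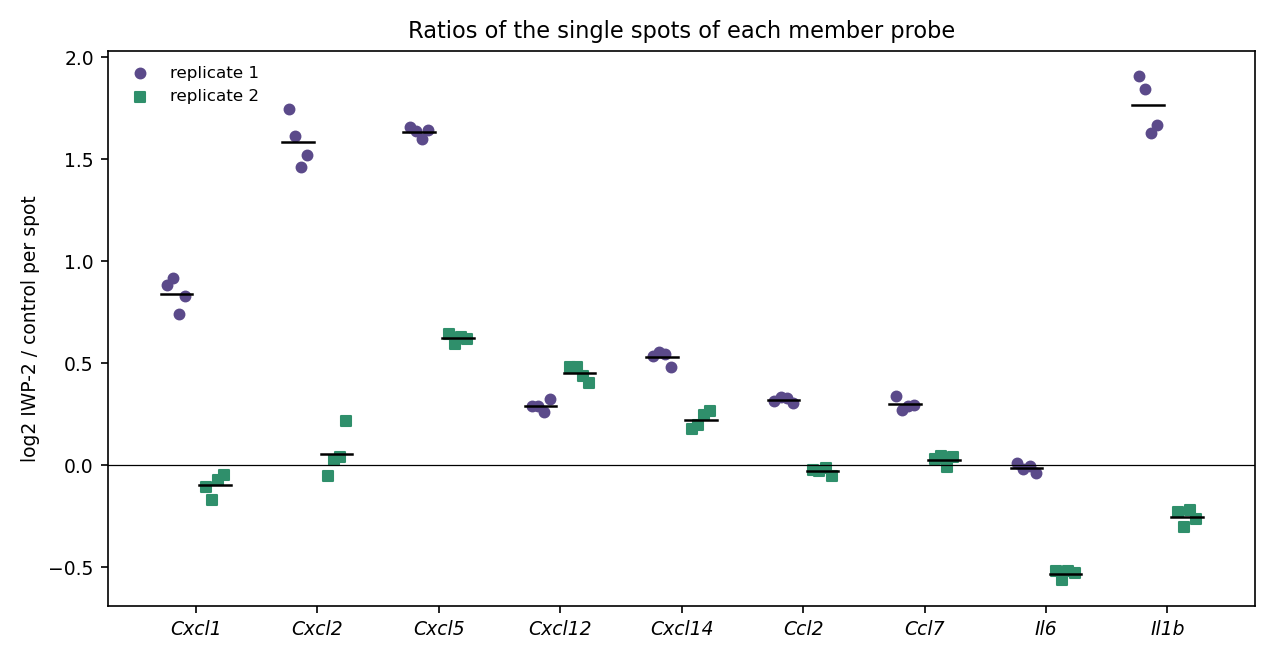
Log2 ratio of IWP-2 over control for every kept spot of the probe used for each of the 9 tested members in replicate 1 (circles) and replicate 2 (squares), with black bars at the ratio of the averaged spots. The ratios of the arrays lie farthest apart for *Cxcl1*, *Cxcl2*, *Cxcl5* and *Il1b*.

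Of the 9 tested members, 8 had a ratio above 0 in replicate 1 and 5 in replicate 2, as had 6970 and 6875 of all 14336 genes. Their median ratio was 0.53 in replicate 1 and 0.03 in replicate 2, beside medians of -0.0042 and -0.0049 over all tested genes. The genes above 0 on both arrays were *Cxcl2*, *Cxcl5*, *Cxcl12*, *Cxcl14* and *Ccl7*, and 3681 of all 14336 genes were.

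The control pools differed more than the treatment groups for the inflammatory members. *Cxcl5* was 4.67-fold and *Il1b* 4.68-fold higher in the male than in the female control pool, *Cxcl2* 3.72-fold and *Cxcl1* 2.69-fold. *Ccl7*, *Ccl2* and *Il6* were higher by 1.66-fold, 1.64-fold and 1.57-fold. On the log2 scale percentiles 5 and 95 of this comparison over the tested genes were -0.32 and 0.35. These 7 genes lay at percentile 98.1 or above, whereas *Cxcl12* lay at 33.26 and *Cxcl14* at 16.25. The members were chosen on ratios that, in replicate 1, are taken over the female control pool. A low female control was thus favoured by the choice, and nothing is read from these percentiles. Between the IWP-2 pools the differences were smaller, at 2.32-fold for *Cxcl5*, 1.29-fold for *Cxcl2*, 1.41-fold for *Cxcl1* and 1.15-fold for *Il1b*. For these 7 genes the IWP-2 pools, like the control pools, gave more signal in replicate 2. The control difference and the ratio of replicate 1 share the female control pool, so they are set side by side and not related to each other. With 1 pool of each sex and condition, sex, dye orientation, array and pool cannot be told apart, and the part of each in these differences was not tested.

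**Figure D3:**
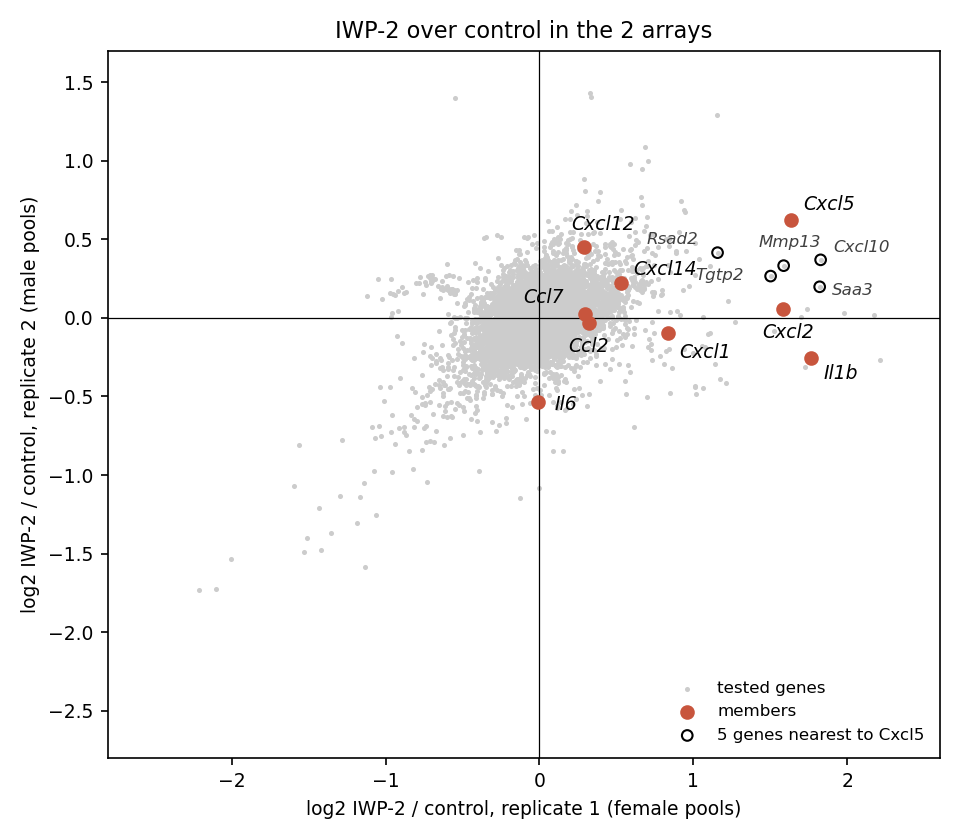
Log2 ratio of IWP-2 over control in replicate 1 (horizontal axis) and replicate 2 (vertical axis) for the tested genes (grey), the 9 tested members (red) and the 5 genes nearest to *Cxcl5* (open circles), with 8 of 14336 genes beyond the axes. *Cxcl1*, *Cxcl2* and *Il1b* lie far to the right but near the horizontal line at 0, and *Cxcl5* is both right and above.

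The 5 genes whose pair of ratios was nearest to that of *Cxcl5*, by Euclidean distance over the 2 arrays, were *Mmp13*, *Cxcl10*, *Tgtp2*, *Saa3* and *Rsad2*. *Mmp13*, which encodes a collagenase, had ratios of 1.59 and 0.33 (distance 0.293), *Cxcl10*, an interferon-induced ligand of CXCR3, 1.83 and 0.37 (0.317), and *Saa3*, an acute-phase protein, 1.82 and 0.20 (0.463). *Tgtp2*, a GTPase induced by interferon, averaged 0.88 (0.379), and *Rsad2*, an antiviral enzyme, had 1.16 and 0.42 (0.519). None of these 5 genes was called by limma, with adjusted p from 0.0936 for *Rsad2* to 0.238 for *Saa3*. In each, the female control pool was the lowest of the 4, as for *Saa3* with 1930 and 6816 in replicate 1 against 15516 and 17797 in replicate 2. The genes were picked for a high ratio in replicate 1, which is taken over the female control pool. A low female control was thus favoured by the choice, and nothing is read from it.

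Related gene lists were examined with limma over all tested genes, of which 899 were higher and 952 lower at an unadjusted p under 0.05. The calls below were lost, and 0 genes were called in all, in fits that also held genes at the floor on both arrays (adjusted p from 0.381 to 0.893 without a filter and from 0.467 to 0.484 with all probes well above background). Of 16 tested chemokine genes outside the set, 0 rose and 1 fell, with 3 higher and 3 lower at an unadjusted p under 0.05. *Ccl24*, encoding an eosinophil attractant, fell from 148 to 102 and from 145 to 109 (mean -0.47 ± 0.09, limma adjusted p = 0.0395, and 0.0583 without further loess). The medians of this list were 0.04 and -0.01, near those of all genes. Of 4 interferon-induced chemokine genes limma called 0, with 1 at an unadjusted p under 0.05, and *Cxcl9* (1.73 and -0.31) and *Ccl5* (0.61 and -0.69) had opposite signs on the arrays. The control signal of *Cxcl9* was 28.2-fold and that of *Ccl5* 10.6-fold higher in the male pool.

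Among 20 tested genes for IL-1, IL-6 and TNF family cytokines and their receptors, 0 rose and 2 fell, with 0 higher and 4 lower at an unadjusted p under 0.05. *Il11*, encoding an IL-6 family cytokine of stromal cells, went from 1084 to 577 in replicate 1 and from 1078 to 662 in replicate 2. Both IWP-2 pools lay well below both controls, and the control pools were nearly equal (mean -0.81 ± 0.15, limma adjusted p = 0.00974). *Il33*, encoding a nuclear alarmin of the IL-1 family, went from 4201 to 2802 and from 4827 to 2841 (mean -0.67 ± 0.13, limma adjusted p = 0.0157). *Il11* also passed the 1.5-fold filter. Unlike these, *Il1rn*, the antagonist of the IL-1 receptor, and *Csf3*, the granulocyte growth factor, had ratios above 0 in replicate 1 only. This was also so for *Cxcl1* and *Cxcl3*, but not for *Cxcl5*. The ratios were 0.63 and -0.01 for *Il1rn* and 1.21 and -0.42 for *Csf3*, and neither was called.

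Of 22 tested inflammatory targets of NF-κB and C/EBP, 1 rose and 1 fell, and 8 were higher and 3 lower at an unadjusted p under 0.05. *Tnfaip6*, encoding a hyaluronan-binding protein, went from 916 to 540 and from 1233 to 689 (mean -0.80 ± 0.05, limma adjusted p = 0.00703), past the filter as well. *Steap4*, encoding a metalloreductase, went from 414 to 573 and from 503 to 702 (mean 0.48 ± 0.01, limma adjusted p = 0.0331). The acute-phase and complement genes *Saa1* (1.22 and 0.11), *C3* (0.80 and 0.15) and *Lcn2* (0.57 and -0.30) were not called, and were 6.71-fold, 3.87-fold and 5.39-fold higher in the male control pool. All 22 targets had more signal in the male than in the female control pool, with a median log2 difference of 0.42, beside -0.0021 over all tested genes. This was not particular to these targets. The male control was also the higher for 9 of 9 tested urothelium markers, 15 of 17 NF-κB subunits and feedback inhibitors and 13 of 16 other chemokines. It was the higher for 0 of 8 endothelial and 0 of 7 smooth muscle markers. Of 17 tested NF-κB subunits and feedback inhibitors, limma called 0, with 1 higher and 1 lower at an unadjusted p under 0.05, and their medians were 0.04 and -0.03. Of 12 tested immediate-early genes it called 0, with 2 higher and 1 lower at that threshold.

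Chemokine receptors were mostly dim. Of 23 listed genes 5 could be tested and 13 lay at the floor in all channels. Among the latter were *Cxcr1*, and *Cxcr2*, *Ccr2* and *Ccr6*, the receptors named above for CXCL1, CXCL2, CXCL5, CCL2, CCL7 and CCL20. The receptors of CXCL12, *Cxcr4* and *Ackr3*, were among the 5 tested. Limma called 0 of the 5, with 2 higher at an unadjusted p under 0.05.

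**Figure D4:**
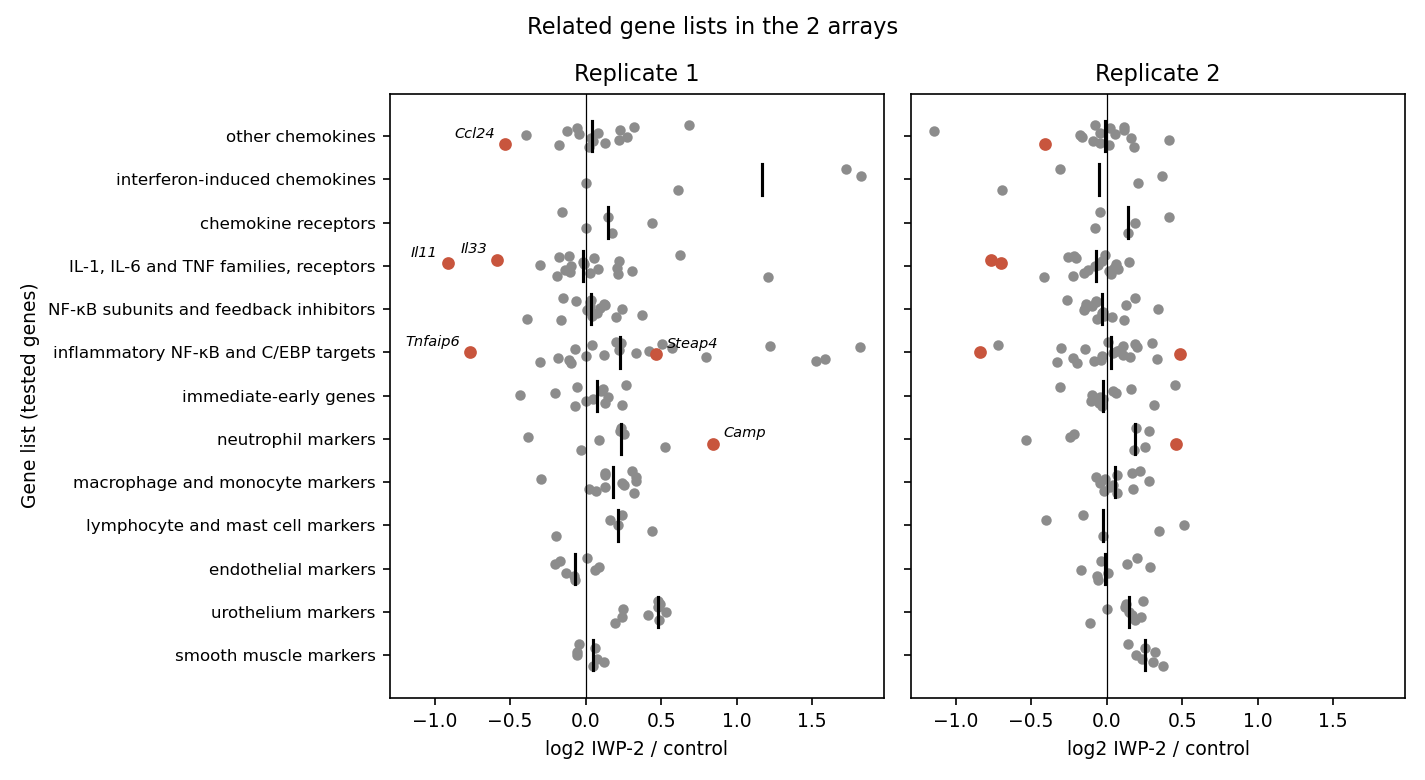
Log2 ratio of IWP-2 over control of the tested genes of each related list in replicate 1 (left) and replicate 2 (right), with black bars at the list medians and red points for the genes called by limma. *Il11*, *Il33*, *Tnfaip6* and *Ccl24* lie left of 0 and *Steap4* and *Camp* right of 0 on both arrays, while several uncalled inflammatory genes lie far right in replicate 1 only.

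Markers of leukocytes and of ureter tissues were read on the same arrays. Of 15 neutrophil markers 8 were tested, and the defining genes *Ltf*, *Ngp*, *Retnlg*, *Fcnb* and *Cxcr2* lay at the floor in all channels. *Camp*, encoding an antimicrobial peptide, rose from 175 to 313 and from 274 to 377 (mean 0.65 ± 0.27, limma adjusted p = 0.0416, and 0.052 with genes of signal above 50), and was the 1 neutrophil marker called. At an unadjusted p under 0.05, 4 of the 8 were higher, namely *Camp*, *S100a8* (mean 0.22), *S100a9* (0.25) and *Mmp9* (0.39), and 1 was lower, *Mpo* (-0.31). The summed signal of this list was 5525 and 5889 in replicate 1 and 6843 and 7236 in replicate 2, and *Csf3r* was its brightest gene. Of 12 tested macrophage and monocyte markers 0 were called, with 2 higher at an unadjusted p under 0.05, and *Fcgr1* was at the floor. Their summed signal was 15923 and 17807 in replicate 1 and 18042 and 18681 in replicate 2, with *Cd14* the brightest (0.33 and -0.07). Lymphocyte and mast cell markers summed to 2040 and 2051 in replicate 1 and to 3177 and 3161 in replicate 2, with 6 of 12 at the floor, 5 tested and 0 called (2 higher at an unadjusted p under 0.05), and *Kit* was the brightest. Summed over each list, leukocyte markers thus gave more signal in replicate 2, but single markers differed. Between the controls, 6 of 8 tested neutrophil, 8 of 12 macrophage and monocyte, and 4 of 5 lymphocyte and mast cell markers were higher in replicate 2. Their median log2 differences were 0.26, 0.21 and 0.96, beside -0.0021 over all tested genes. *Elane* was 4.43-fold and *Cd4* 3.42-fold higher. In contrast, the neutrophil markers *Mpo* (162 and 123) and *Mmp9* (332 and 276) were lower, as were *Kit* (1093 and 909) and *Csf1r* (1197 and 1008). The lymphocyte markers *Cd3g* and *Cd8a* lay at the floor in all channels. The part of leukocytes in the differences between pools was not tested.

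The tissue label was borne out by the uroplakin, keratin and smooth muscle genes, all of which were bright. Of 9 urothelium markers 0 were called, but 7 were higher at an unadjusted p under 0.05, 8 were above 0 on both arrays and the medians were 0.48 and 0.15. Of all 14336 genes, 899 were higher at that threshold and 3681 were above 0 on both arrays. Their summed signal was 95649 and 125560 in replicate 1 and 116710 and 126410 in replicate 2, so that the female control was again the lowest pool, and *Upk3a* was the brightest. The part of these epithelial cells in the ratios of the chemokines was not tested. Smooth muscle markers summed to 98926 and 98938 in replicate 1 and to 84441 and 98907 in replicate 2, with *Acta2* the brightest, and endothelial markers to 20928 and 19415 and to 18664 and 18833, with *Cdh5* the brightest. Limma called 0 of the 7 tested smooth muscle and 0 of the 8 endothelial genes, with 1 of each list higher at an unadjusted p under 0.05. None of the 8 kidney tubule and podocyte markers could be tested, as 5 lay at the floor and the others were dim.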

How the data were processed

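RNA of P0 ureters was hybridized to 2 two-colour Agilent arrays, each with 1 control and 1 IWP-2 channel. The intensities deposited by the authors are processed signals of Feature Extraction (12.2.0.7 in the file headers, 10.7.3.1 in the submitters' processing notes), with background subtraction and dye normalization. The deposited log10 ratio of red over green was used only to check direction and lay within 0.001 of the processed signals in 82.8% and 83.1% of spots. The deposited series table holds a score per probe, a signed fold change with 1 decimal, read here as an alternative. The files name mm9.

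Control spots (17263) and spots flagged as outliers (3.32% and 3.22%) were left out, and 0 spots were saturated. Within-array loess (limma 3.58.1 under R 4.3.3) came first, then the mean over 4 spots per probe, a floor at 15 and log2, and the brightest probe stood for a gene. Ratios were tested against 0 with lmFit and eBayes and Benjamini-Hochberg adjustment over 14336 genes, with 1 residual degree of freedom, and the number of arrays limits the precision. Both arrays lay on 1 slide. The pools of an array are paired by construction. Well above background were 68.9% to 70.4% of probes per channel. The steps were tested on simulated data.

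The members and gene lists were chosen with earlier results of these data known. Named were all members, list genes called by limma or past the filter (up to 5 per list), the 5 genes nearest to *Cxcl5*, the brightest marker per cell type, *Axin2* and *Porcn*. Other genes were named after their values had been seen. Upstream sequences are from RefSeq (GRCm38.p6). Alternatives covered background correction, normalization, floor, flagged spots, spot and probe summaries, filters, single arrays and the series table.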

Additional observations from a re-analysis of the deposited data

Results flagged for a closer look

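Some genes had ratios on opposite sides of 0 in the 2 arrays, with all 4 spots of each array on the same side. Replicate 1 minus replicate 2 came to 0.93 for *Cxcl1*, 0.35 for *Ccl2* and 2.02 for *Il1b* on the log2 scale. The same held for *Cxcl3* (0.77), *Csf3* (1.63) and *Lcn2* (0.88), which were named after their values had been seen. In each case the ratio was above 0 in the female pools and below 0 in the male pools. With 1 array of each sex and dye orientation, the difference between the arrays was not tested.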

How the results depend on the processing

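The mean log2 fold change of *Cxcl5* stayed above 0 under all 11 alternatives, and was 0.62 without replicate 1 and 1.63 without replicate 2. A lower floor, the mean over probes and quantile scaling between arrays left it at 1.13. As *Cxcl5* was chosen for its ratios on these arrays, nothing is read from its constant sign. The means of *Cxcl2*, *Cxcl12*, *Cxcl14* and *Ccl7* also stayed above 0 and that of *Il6* below 0. *Cxcl1* (-0.10), *Ccl2* (-0.03) and *Il1b* (-0.25) were below 0 without replicate 1 and above 0 under the other 10 alternatives, so their sign rests on the female array. Read from the deposited series table, *Cxcl5* was at 1.11.

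Limma's 179 calls over all genes became 427 with normexp background correction, 117 without further loess, 114 with the median over spots, 67 with the mean over probes, and 0 both without a filter on dim genes (2028 at an unadjusted p under 0.05) and with all genes well above background (2081). In these last fits 11753 and 1581 genes had identical ratios on both arrays, against 0 in the main fit. The floor sets the ratio to 0 on both arrays for a gene at 15 in all channels. The part of such genes in the loss of calls was not tested. The 5 calls in the pathway lists became 10 with normexp, 3 with the mean over probes, and 0 in the same last fits. *Il11*, *Il33* and *Tnfaip6* were called under 10 of 12 alternatives, *Steap4* under 9 of 12, *Camp* under 6 of 12 and *Ccl24* under 6 of 11. The 62 genes past 1.5-fold on both arrays became 114 with controls well above background and 19 at 2-fold, and *Cxcl5* was not among the 19. On 1 array alone there were 103 to 272. The ratios tested already pair the pools of an array. Signal over background limits *Ccl20* and most chemokine receptors, for which no change could be measured.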
